A study of Mus musculus with 24 samples.

Results

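The late phase after acetaminophen (APAP) overdose was represented by 4 of the 24 liver RNA-seq libraries of the series: 1 control and 1 liver-specific E2f7/E2f8 knockout (LKO) library at 72 h, and 1 of each at 96 h. The members were taken by genotype and time label alone. LKO mice carried floxed E2f7 and E2f8 alleles and the Alb-Cre transgene (E2f7/E2f8 loxP/loxP, R26R mTmG/mTmG, Alb-Cre Tg/0), which the albumin promoter drives in the liver lineage, so the deletion was in place before APAP was given. Controls, labelled WT, were littermates with the same floxed and R26R mTmG alleles but no Cre (Alb-Cre 0/0), on a mixed background, predominantly FVB. All were males of 2.5 months, fasted overnight (about 16 h) and given 300 mg/kg APAP by intraperitoneal injection. Each library held RNA pooled from 3 mice, so a late library came only from mice alive at 72 h or 96 h, and no time point had a replicate within a genotype. Unless another fit is named, a p-value below therefore measures how well the genotype difference at 72 h matched that at 96 h, not the spread between mice. For a gauge of that spread, 8 single livers taken at 0 h (4 per genotype) were used.

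APAP is turned into a reactive metabolite by cytochrome P450 enzymes of the pericentral hepatocytes, which die. Macrophages then clear the dead tissue, stellate cells lay down a temporary matrix, surviving hepatocytes divide, and the acute-phase response fades as the liver regains its metabolic work. E2f7 and E2f8 are atypical E2F factors that repress cell cycle genes and are needed for hepatocytes to become polyploid, and LKO livers are mostly diploid. The question set by the late pools was how recovery differed between the genotypes.

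The 4 libraries held between 14939529 (control, 72 h) and 19499897 (LKO, 72 h) reads on genes. Counts of the Y-linked genes Ddx3y, Eif2s3y, Kdm5d and Uty were at least 139 in every pool, and Xist, the transcript of the inactive X, had at most 7 reads, as in male tissue. Alb, the albumin transcript that defines hepatocytes, was between 66381 and 98955 CPM in all 4, CPM being the count scaled to the library's size after trimmed-mean normalisation.

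Of 12977 genes tested, 4278 (33%) were higher in LKO at both times, 4281 (33%) were lower at both times and 4418 lay on opposite sides. Across genes, the log2 ratios at 72 h and 96 h had a Pearson correlation of 0.404, which is a description over genes that share libraries. A difference of at least 2-fold in the same direction at both times, called consistent here, was seen for 264 genes higher in LKO (2.03% of those tested) and 139 lower (1.07%). At least 1 control pool had under 10 reads in 86 of the 264, and at least 1 LKO pool in 52 of the 139, so part of both counts rests on genes that passed the count filter through 1 genotype. In all, 68 genes were 2-fold apart in opposite directions (31 higher at 72 h and lower at 96 h, 37 the reverse). Both LKO pools lay above both control pools for 24.1% of genes tested and below both for 21.3%. The 16 differences between an LKO and a control mouse at 0 h gave each gene a range of 0 h pairs. Both late ratios lay above that range for 825 genes (6.36%) and below it for 601 (4.63%). edgeR's quasi-likelihood test with time as a block called 363 genes higher (2.8%) and 222 lower (1.71%) at adjusted p under 0.05 and at least 1.5-fold. In that test 2856 genes (22%) had an unadjusted p under 0.05. With the time block left out, no gene was called (1589 at unadjusted p under 0.05), and with the spread estimated over all 10 pools of the time course 80 were called. With the spread estimated over all 18 libraries, single mice included, 46 were called, 44 higher and 2 lower (Hp, the acute-phase protein haptoglobin, and Fxyd5). Scaling by library size alone moved the median of all genes to 0.09 at 72 h and 0.22 at 96 h, and the consistent genes then divided into 380 higher and 93 lower. Direction at both times is therefore given first below, and the p-value second.

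**Figure D1:**
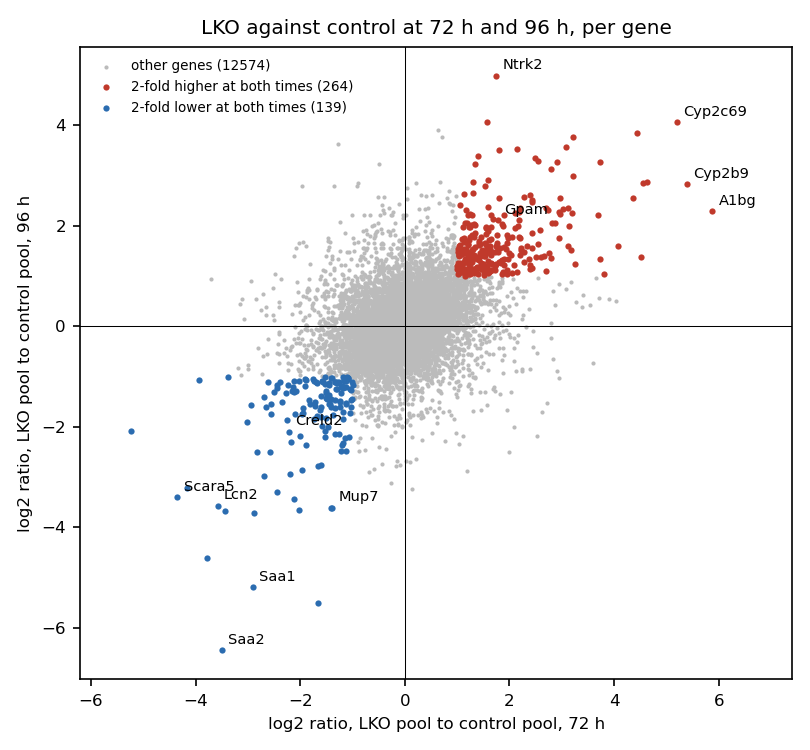
Each point is 1 of 12977 genes, with the log2 ratio of the LKO pool to the control pool at 72 h on the x axis and at 96 h on the y axis. The 264 genes at least 2-fold higher at both times (red) and the 139 at least 2-fold lower (blue) far outnumber the 68 that were 2-fold apart in opposite directions.

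A property of the transcripts moved with these ratios. Set against transcript length, the log2 ratios had a Spearman correlation of 0.36 at 72 h and 0.41 at 96 h, against -0.02, 0.07 and -0.04 at 12, 24 and 48 h. Genes with transcripts under 1000 bases had a median ratio of -0.41 at 72 h and -0.49 at 96 h, and those of 8000 bases or more 0.46 and 0.42. Set against the mean of the 0 h livers, the length correlation was -0.24 in the control pool at 72 h and -0.43 at 96 h, and 0.03 and -0.04 in the LKO pools. Single 0 h livers measured the same way ran from -0.36 to 0.27, so the control pool at 72 h lay within their spread and the control pool at 96 h below it. Among the 16 pairs of a control and an LKO mouse at 0 h the correlation ranged from -0.32 to 0.26, and both late values, from pools of 3 mice, lay above that range. Consistent genes higher in LKO had a median longest transcript of 4962 bases, and those lower 2016, against 3342 for all tested. Reads outside annotated genes were 7.29% and 7.73% of all reads in the control pools and 10.4% and 10.1% in the LKO pools. The part of these measures in the results was not tested, but every group was recomputed with a smooth length trend removed from each pool, a setting chosen after seeing the data. That left 208 consistent genes higher (178 of the 264) and 107 lower (90 of the 139).

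**Figure D2:**
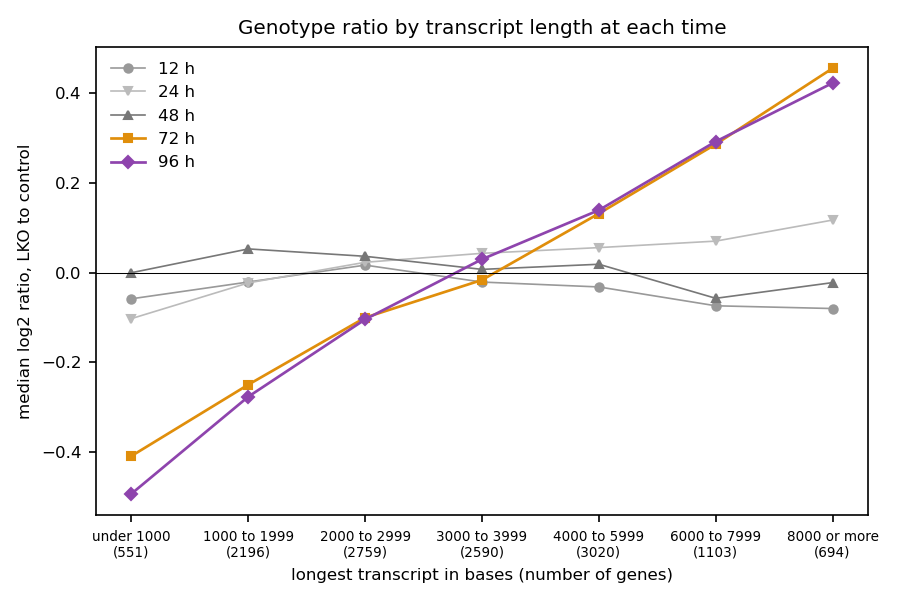
Median LKO to control log2 ratio (y axis) for genes grouped by the length of their longest annotated transcript in bases (x axis, with the number of genes), with 1 line for each time after APAP. The 72 h and 96 h lines climb from -0.41 and -0.49 to 0.46 and 0.42, while the 12, 24 and 48 h lines stay within 0.12 of 0.

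The counts of the targeted genes were not lower in LKO throughout. E2f8 (7; mm10 48866429 to 48881596) was at 7.75 CPM in the control pool and 16.6 in the LKO pool at 72 h, and at 8.77 and 16.5 at 96 h. Both LKO pools were above both controls, as in 24.1% of all genes tested. The log2 fold change was 1.00 (SE 0.23, edgeR adjusted p = 0.037), although the 0 h livers spanned 11.7 to 34.5 CPM. E2f7 was lower in the LKO pool at 72 h, with 66 reads in control and 40 in LKO (log2 ratio -1.16), and had 0 and 2 reads at 96 h, under the 3-count limit of detection. It did not pass the test (adjusted p = 0.60). Counts over the whole gene include exons outside the floxed part, so neither value checks the recombination.

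The acute-phase proteins, which hepatocytes secrete under inflammatory cytokines, were on the lower side as a group. Of 24 tested, 23 were lower in LKO at both times, 7 by at least 2-fold, and 8 were called lower and 0 higher. Their median log2 ratio was -1.03 at 72 h and -0.76 at 96 h, against -0.004 and 0.003 over all genes tested. Lcn2, the siderophore-binding lipocalin made by injured hepatocytes and neutrophils, was at 471 CPM in control and 39.3 in LKO at 72 h, and at 137 and 11.5 at 96 h. Its log2 fold change was -3.58 (SE 0.20, adjusted p = 5.1e-05), the ratios at 72 h and 96 h were nearly equal (-3.58 and -3.57), and both lay below the whole range of the 0 h pairs. Saa1, serum amyloid A, was at 249 CPM in control and 33.2 in LKO at 72 h, and at 1514 and 41.5 at 96 h. Saa2, its near-identical neighbour on chromosome 7, was at 115 and 10.1 CPM, then 771 and 8.70. The control pool was thus higher at 96 h than at 72 h for both Saa genes, while the LKO pools stayed within the span of the 0 h livers. Log2 fold changes were -4.05 for Saa1 (SE 0.49, adjusted p = 0.0022) and -4.98 for Saa2 (SE 0.60, adjusted p = 0.0022). Reads could be split between these 2 paralogs, so they are better read as a pair. Saa3 and Orm3 fell as well, by 1.72 and 1.85 on the log2 scale. Without the length trend, 20 of the 24 stayed lower at both times, with medians of -0.83 and -0.72. The same list had medians of -0.16 at 0 h and of 0.45, 0.37 and 0.32 at 12, 24 and 48 h.

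Chaperones of the endoplasmic reticulum (ER), which fold secreted proteins and are induced by the unfolded protein response, were lower in LKO at both times for all 12 tested, with medians of -1.01 and -0.66. At 0 h, before APAP, the list already had a median of -0.46, and at 12, 24 and 48 h the medians were 0.33, 0.26 and 0.24. 4 of the 12 were called lower: Creld2, Manf, Sdf2l1 and Hyou1. Creld2, an ER stress-induced disulfide isomerase, was at 215 CPM in control and 46.1 in LKO at 72 h, and at 117 and 27.4 at 96 h (log2 fold change -2.16, SE 0.17, adjusted p = 0.0003). Manf, a secreted ER stress protein, was at 413 CPM in control and 135 in LKO at 72 h, and at 256 and 97.5 at 96 h (adjusted p = 0.0032). In both genes each LKO pool was lower than either control pool, as in 21.3% of all genes tested. Hspa5, the chief ER chaperone (BiP), was at 1982 and 939 CPM at 72 h and at 1437 and 700 at 96 h. Its ratios of -1.08 and -1.04 were alike, but its adjusted p of 0.060 missed the threshold. Derl3, which draws misfolded proteins out of the ER, was not on the list. It was among the 12 lowest consistent genes with at least 1 CPM on average, at 28.6 and 3.75 CPM, then 8.56 and 0.544. The 0 h livers spread widely in this group (35.5 to 355 CPM for Creld2). No ER list member lay outside the range of 0 h pairs at both times, against 4.63% of all genes tested below it and 6.36% above. With the length trend removed, 11 of 12 stayed lower.

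Promoters of ER list members are shown for the ER stress element, CCAAT and CCACG set 9 bases apart. The factors ATF6 and NF-Y are known to bind it. In RefSeq promoters (250 bases before to 50 after the start, GRCm38.p6), the element was found on either strand in 5 of the 10 ER list members with an entry. The share over all 27025 genes with an entry was 0.137%, and over the tested genes with an entry 0.191%. The list was made of known unfolded protein response genes, so a high share was built in by its choice. Of the 4 members called lower, Creld2 has the element, Sdf2l1 does not, and Manf and Hyou1 had no entry. Capitals mark the half-sites, reading CGTGG and ATTGG where the element is on the other strand. A match is a description of letters and does not show that a factor was bound.
Creld2, chr15:88819396-88819695, plus strand: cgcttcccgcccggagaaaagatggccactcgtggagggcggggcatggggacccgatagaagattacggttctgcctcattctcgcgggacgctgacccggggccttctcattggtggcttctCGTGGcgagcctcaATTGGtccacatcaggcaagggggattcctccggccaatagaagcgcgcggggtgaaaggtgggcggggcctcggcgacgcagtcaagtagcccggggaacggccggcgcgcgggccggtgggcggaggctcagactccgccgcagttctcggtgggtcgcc
Hspa5, chr2:34771840-34772139, plus strand: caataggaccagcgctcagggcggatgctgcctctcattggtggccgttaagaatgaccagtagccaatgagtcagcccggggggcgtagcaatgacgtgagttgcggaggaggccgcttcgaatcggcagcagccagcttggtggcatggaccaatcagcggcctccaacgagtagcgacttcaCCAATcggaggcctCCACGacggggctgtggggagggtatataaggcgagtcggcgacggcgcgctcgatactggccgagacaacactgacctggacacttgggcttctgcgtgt
Hsp90b1, chr10:86705395-86705694, minus strand: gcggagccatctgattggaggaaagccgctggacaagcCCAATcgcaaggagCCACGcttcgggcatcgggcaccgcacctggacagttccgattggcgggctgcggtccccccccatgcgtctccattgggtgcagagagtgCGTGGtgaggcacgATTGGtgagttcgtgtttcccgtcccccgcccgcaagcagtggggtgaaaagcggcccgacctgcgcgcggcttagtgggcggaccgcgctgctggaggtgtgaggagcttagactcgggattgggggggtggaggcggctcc

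Lipid synthesis genes were on the higher side. Of the 18 enzymes and regulators of lipogenesis tested, 15 were higher in LKO at both times and 0 lower, 7 by at least 2-fold, and 8 were called higher. Medians were 0.92 at 72 h and 1.26 at 96 h. At both times 8 of the 18 members exceeded every 0 h pair difference, against 6.36% of all genes tested. The 0 h livers were fasted and untreated, so their spread may differ from that of late livers. Fasn, fatty acid synthase, was at 112 CPM in control and 328 in LKO at 72 h, and at 355 and 1268 at 96 h. Gpam, which starts triglyceride assembly, was at 34.2 and 117 CPM, then 44.9 and 195. Acly, which supplies cytosolic acetyl-CoA, was at 106 and 294 CPM, then 187 and 534. In each of these the LKO pool was higher than its own control at both times, although the control Fasn value at 96 h exceeded the LKO value at 72 h. Log2 fold changes were 1.69 for Fasn (SE 0.24, adjusted p = 0.0044) and 1.95 for Gpam (SE 0.18, adjusted p = 0.0005) and Acly had an adjusted p of 0.0036. In the test against the 0 h difference, Acly and Gpam each had an adjusted p of 0.092. Me1, the malic enzyme that yields NADPH, was called higher too (1.61, adjusted p = 0.0022). These transcripts are long (4426 bases for Acly, 10050 for Fasn), and with the length trend removed Fasn still differed by 1.06 and 1.40, and 15 of 18 members stayed higher.

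Cholesterol synthesis and uptake behaved differently at the 2 times. 16 of 24 members were higher at both times and 1 lower, 3 were called, and the median was 0.09 at 72 h and 0.90 at 96 h. Idi1, an isoprenoid isomerase, was at 35.5 and 46.8 CPM at 72 h, and at 12.5 and 75.8 at 96 h. Hmgcs1, HMG-CoA synthase, was at 162 and 213 CPM, then 86.2 and 323. Neither passed the test (adjusted p = 0.066 and 0.064), since the 96 h difference was much the larger. Sc5d, a late sterol desaturase, was more even, at 153 and 319 CPM, then 195 and 469 (log2 fold change 1.17, SE 0.20, adjusted p = 0.012).

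Genes with a sex-dependent pattern in mouse liver, set largely by the rhythm of growth hormone, were followed in 2 lists. Of 17 female-patterned genes listed, 6 (Cyp3a41a, Cyp3a41b, Cyp3a16, Sult2a1, Sult2a2 and Sult3a1) had too few reads to be tested. In 8 of the 11 tested at least 1 control pool had under 10 reads while both LKO pools had more, so their passing of the count filter rested on the LKO pools, where they were high. Counts, medians and levels of this list are therefore a description, with no test: 10 of 11 were higher in LKO at both times, 8 by at least 2-fold, and the medians were 4.35 and 2.30. Cyp2c40, a P450 enzyme, was at 0.596 CPM in control and 15.5 in LKO at 72 h, and at 2.55 and 38.5 at 96 h, from 9 and 36 reads in the control pools. Cyp2c69 was at 0.133 and 9.15 CPM, then 1.42 and 25.4, and shares sequence with Cyp2c40. Both genes had ratios above the range of the 0 h pairs, which is no support, since they passed the count filter through the LKO pools. Cyp2b9 was at 2.32 and 103 CPM at 72 h and at 27.2 and 194 at 96 h, but it ran from 0 to 145 CPM among the 0 h livers. Each LKO pool exceeded its control, but the difference lay inside the range of the 0 h pairs. A1bg, Cyp3a44 and Cyp2a4 had 1 to 45 reads in the control pools and 42 to 393 in the LKO pools. The group was also on the higher side at 0 h (median 0.70) and at 12, 24 and 48 h (medians 1.83, 1.94 and 2.21), and Cyp2c40 had log2 ratios of 4.83, 5.63 and 4.77 then.

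On the male-patterned side, 10 of 15 genes were lower at both times and 4 were called lower, with medians of -0.11 and -1.04 (8 of 15 lower at both times on library size alone). The male-patterned list leaned the same way before APAP, with a median of -0.56 at 0 h, and had medians of -0.50, -0.06 and 0.23 at 12, 24 and 48 h. Of the major urinary proteins, which male livers secrete as pheromone carriers, 7 of 8 were lower at both times and 4 were called lower, with medians of -1.21 and -2.89. Their median was -0.96 at 0 h, and -1.44, -0.57 and -0.04 at 12, 24 and 48 h. Mup7 was at 138 CPM in control and 52.9 in LKO at 72 h, and at 388 and 31.7 at 96 h, but from 90.5 to 2218 CPM at 0 h. The Mup genes are near-identical copies, and reads that map to several are dropped, so single Mup values are uncertain. Selenbp2 was at 710 and 246 CPM, then 492 and 117 (log2 fold change -1.80, adjusted p = 0.0032). Cish, a feedback inhibitor induced by growth hormone through STAT5, was at 12.7 and 2.51 CPM, then 19.2 and 7.56 (log2 fold change -1.80, SE 0.30, adjusted p = 0.0097). The growth hormone and IGF axis list went both ways, with 3 of 12 higher at both times, 3 lower and 6 on opposite sides, 1 called higher and 2 lower, and medians of -0.18 and 0.16.

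Ccnd1, cyclin D1, the G1 cyclin that carries hepatocytes into the cell cycle, was at 147 CPM in control and 41.6 in LKO at 72 h, and at 55.8 and 19.1 at 96 h. It was lower in LKO at both times by more than any 0 h pair (log2 fold change -1.69, SE 0.17, adjusted p = 0.00082), and it was also called with the spread of all 10 pools (adjusted p = 0.048) but not with that of all 18 libraries (adjusted p = 0.093). It was the 1 member called of 11 G1 cyclins, CDKs and brakes, of which 5 were higher at both times, 5 lower and 1 on opposite sides, with medians of -0.22 and 0.03 (1 lower at both times on library size alone). Most replication and mitosis genes were lower in LKO at 72 h, as Ccnd1 was, but not at 96 h. Of 37 S phase genes, 29 were lower in LKO at 72 h and 29 were higher at 96 h, and 22 crossed from lower to higher. Of 32 G2/M genes, 26 were lower at 72 h, 24 were higher at 96 h, and 19 crossed. Medians went from -0.39 to 0.46 and from -0.31 to 0.26. edgeR called 0 members of either list, and DESeq2 called 1 and 0. Unadjusted edgeR p was under 0.05 for 5 and 2 members, against 22% of all genes tested. Pcna, the replication clamp, was at 88.2 and 64.8 CPM at 72 h, and at 22.3 and 35.2 at 96 h. Rrm2, the ribonucleotide reductase subunit, was at 49.2 and 69.5 CPM, then 5.02 and 18.4. Mki67, the proliferation marker, was at 52.9 and 61.9 CPM, then 2.48 and 5.22. Rrm2 and Mki67 were thus higher in LKO at both times, as were only 7 of the 37 S phase and 5 of the 32 G2/M genes. For Pcna, both 72 h pools and the LKO pool at 96 h were above the 15.6 to 28.8 CPM of the 0 h livers, and the control pool at 96 h was within it. There is 1 pool per genotype at each time, so the crossing was not tested.

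**Figure D3:**
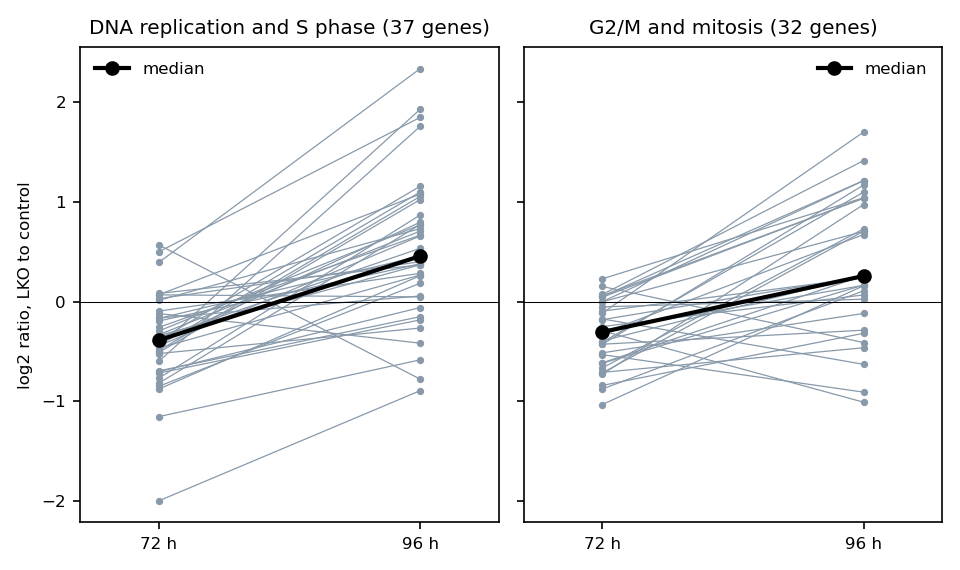
Log2 ratio of LKO to control (y axis) at 72 h and 96 h (x axis) for 37 S phase genes and 32 G2/M genes, with 1 thin line per gene and the median in black. The medians pass from -0.39 to 0.46 and from -0.31 to 0.26, and 22 and 19 of the lines cross 0 upward.

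The stress lists differed from one another. Among AP-1 and other immediate-early genes, 12 of 21 were lower at both times, 1 higher, and 7 were called lower. Fos, an AP-1 subunit, was at 48.0 and 16.6 CPM, then 11.2 and 2.34 (log2 fold change -1.82, SE 0.23, adjusted p = 0.0025). Socs3, the feedback inhibitor of interleukin-6 signalling, was at 27.0 and 4.46 CPM, then 31.5 and 9.25 (-2.16, adjusted p = 0.0014). Btg2, an antiproliferative p53 target that is on both lists, was at 90.5 and 23.4 CPM, then 29.6 and 8.87, below every 0 h pair. Of 18 p53 targets, 10 were lower at both times and 3 higher, and 3 were called lower: Btg2, Phlda3 and Bax. Cdkn1a, the p21 cell cycle brake, was at 48.4 and 11.2 CPM at 72 h but at 3.04 and 2.99 at 96 h, so its difference was seen at 72 h alone. The p53 list median was -0.83 at 72 h and -0.07 at 96 h, and the latter became 0.14 on library size alone. JNK pathway genes, Mapk8 and Map2k4 among them, had list medians of 0.06 and 0.14, which became -0.09 and -0.005 without the length trend. Of the 13, 7 were higher at both times and 2 lower, against 3 and 6 without the trend. edgeR called 0 of 13, as DESeq2 did, and 2 had an unadjusted edgeR p under 0.05, against 22% of all genes tested. The metallothioneins Mt1 and Mt2, metal-binding stress proteins, were called lower. Mt1 was at 1261 and 231 CPM, then 519 and 232. The metallothionein and zinc transport list summed to 644 to 2788 CPM in the late pools, within the 406 to 2986 of the 0 h livers. No member lay below the range of the 0 h pairs at both times. This list had medians of -0.30 at 0 h and of -0.75, -0.80 and -0.36 at 12, 24 and 48 h. The AP-1 and p53 lists had lain lower in LKO earlier too, with medians of -0.37 and -0.10 at 0 h, -1.07 and -0.91 at 12 h -0.82 and -0.50 at 24 h, and -1.997 and -1.16 at 48 h.

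**Figure D4:**
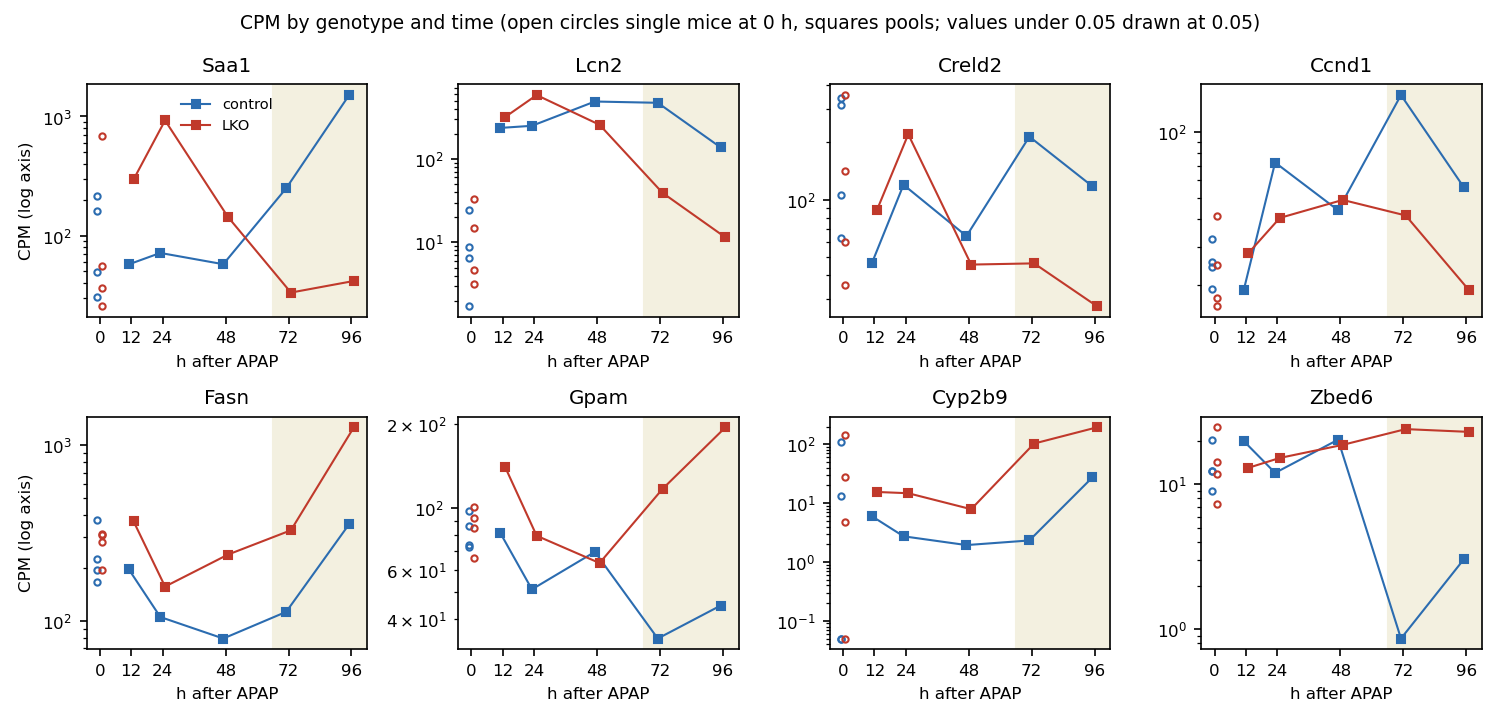
CPM on a log axis (y) against hours after APAP (x) for 8 genes in control (blue) and LKO (red), with open circles for single livers at 0 h and squares for pools, and the late phase shaded. Saa1 in control climbs to 1514 at 96 h while LKO stays at 41.5, and Zbed6 in control drops to 0.861 at 72 h while LKO stays at 24.1.

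Markers of other cell types were followed because a bulk library cannot tell fewer cells of a type from less RNA per cell. Macrophage and monocyte markers summed to 1172 CPM in control and 919 in LKO at 72 h, and to 504 and 191 at 96 h, with 160 to 346 at 0 h. 10 of 17 were lower at both times and 3 were called lower, among them Lgals3, galectin-3, at 205 and 97.6 CPM, then 11.2 and 2.34. Cd68, a macrophage lysosomal protein, was at 50.2 and 31.1 CPM, then 10.8 and 4.13. Neutrophil markers, 6 of 13 above the count limit, summed to 28.9 and 9.53 CPM, then 8.42 and 2.39. Kupffer cell markers summed to 489 and 602 CPM, then 631 and 300, a marker sum higher in LKO at 72 h and lower at 96 h that was not tested. Stellate cell and matrix genes summed to 2777 and 1692 CPM at 72 h and to 1028 and 971 at 96 h, with medians of -0.90 and 0.12. Without the length trend the 96 h median became -0.11, and 18 of the 31 were lower at both times against 9 with it. Acta2, the actin of activated stellate cells, was at 68.8 and 15.7 CPM, then 1.06 and 2.99. Endothelial markers summed to 479 and 424 CPM, then 456 and 452. Of 19 cytokines and chemokines listed, 13 were tested, 8 of them were lower at both times, 5 lay on opposite sides and 3 were called lower. One of these was Cxcl1, a neutrophil-attracting chemokine, at 106 and 25.8 CPM, then 37.6 and 17.7. The part of the cell type markers in the acute-phase and chemokine values was not tested.

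Other genes among the 12 highest and 12 lowest consistent genes fell outside these lists. Cyp21a1, the steroid 21-hydroxylase best known from the adrenal cortex, was at 46.1 CPM in control and 3.23 in LKO at 72 h, and at 6.79 and 0.163 at 96 h, the last from 3 reads. The control pool at 72 h was above the 0.111 to 11.1 CPM of the 0 h livers, and the other 3 pools were within it. Capn8, a calpain protease, was at 8.94 and 0.712 CPM, then 4.17 and 0.218, the last from 4 reads, with 0.498 to 23.3 CPM at 0 h. F13a1, the coagulation factor XIII subunit carried by macrophages, had 186 reads in control and 46 in LKO at 72 h, and 15 and 0 at 96 h, so it followed the macrophage markers in direction. Tff3, a mucosal trefoil peptide, had 56 and 2 reads, then 14 and 0, and Obp2a, an odorant-binding protein, had 66 and 0, then 12 and 2. Both passed the count filter through the control pools alone, so no fold or test is given.

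On the higher side stood the organic anion transporters Slc22a26 and Slc22a27, neighbours on chromosome 19 that have near copies beside them. Slc22a27 had 0 reads in control and 21 in LKO at 72 h, and 7 and 151 at 96 h, and Slc22a26 had 1 and 27, then 7 and 107. Each had under 10 reads in both control pools and passed the count filter through the LKO pools, so no test is given. Tcf24, a helix-loop-helix factor, was at 0.397 and 6.74 CPM, then 1.13 and 12.0, from 6 and 16 reads in the control pools, while single 0 h livers ran from 0 to 9.33 CPM. Rgr, an opsin of the retinal pigment epithelium, had 0 reads in both control pools and 19 and 24 in the LKO pools, by which alone it passed the count filter, with up to 2.01 CPM at 0 h.

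Among the genes of drug and bile acid metabolism, the APAP-activating P450s changed sides. All 4 were higher in LKO at 72 h and all 4 lower at 96 h, although 1 of the 4 was higher at both times on library size alone. Cyp2e1, the main APAP-oxidising enzyme, was at 2511 and 4270 CPM, then 6922 and 4165, and Cyp1a2 at 403 and 959 CPM, then 893 and 794. For Cyp2e1 the LKO pools were nearly level, and the control pool was the lower at 72 h and the higher at 96 h. Conjugation enzymes were higher for 4 of 6 at both times, and 3 UDP-glucuronosyltransferases were called. Ugt1a1 was at 63.2 and 199 CPM, then 90.0 and 177, but exons shared across the Ugt1a cluster make its members hard to separate. Of 18 bile acid genes, 11 were higher at both times, 3 were lower and 4 lay on opposite sides, and 5 were called higher. Cyp7a1, the rate-limiting enzyme of bile acid synthesis, was at 55.1 and 296 CPM, then 76.3 and 170 (log2 fold change 1.79, SE 0.28, adjusted p = 0.0065). Cyp8b1, which sets the share of cholic acid, was at 74.7 and 224 CPM, then 139 and 339 (1.44, adjusted p = 0.0035).

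Groups of short and of long transcripts stood apart. Ribosomal proteins were lower in LKO at both times for 72 of 74, with medians of -0.55 and -0.69, and 9 were called lower. Complex I subunits were lower at both times for 30 of 35, with medians of -0.26 and -0.39. Their median transcripts were 1100 and 1046 bases long. Without the length trend the ribosomal medians became -0.27 and -0.36, and those of complex I became 0.09 and -0.01, with 12 higher and 12 lower. At the other end stood Zbed6, a single-exon gene within Zc3h11a on chromosome 1. It was at 0.861 CPM in control and 24.1 in LKO at 72 h, and at 3.04 and 23.1 at 96 h (log2 fold change 3.69, SE 0.39, adjusted p = 0.00096). The LKO values were within the 7.36 to 24.8 CPM of the 0 h livers and the control values were below them. Cep85l, Rassf8 and Lcor showed the same layout, with late control pools below every 0 h liver. Reads that overlap exons of both Zbed6 and Zc3h11a are counted as ambiguous and left out, which can lower the Zbed6 values. Erbb3, a receptor of the EGF receptor family, was at 28.4 and 86.3 CPM, then 32.7 and 107 (1.66, SE 0.17, adjusted p = 0.00074), and again the late controls were below the 65.3 CPM of the lowest 0 h liver.

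**Figure D5:**
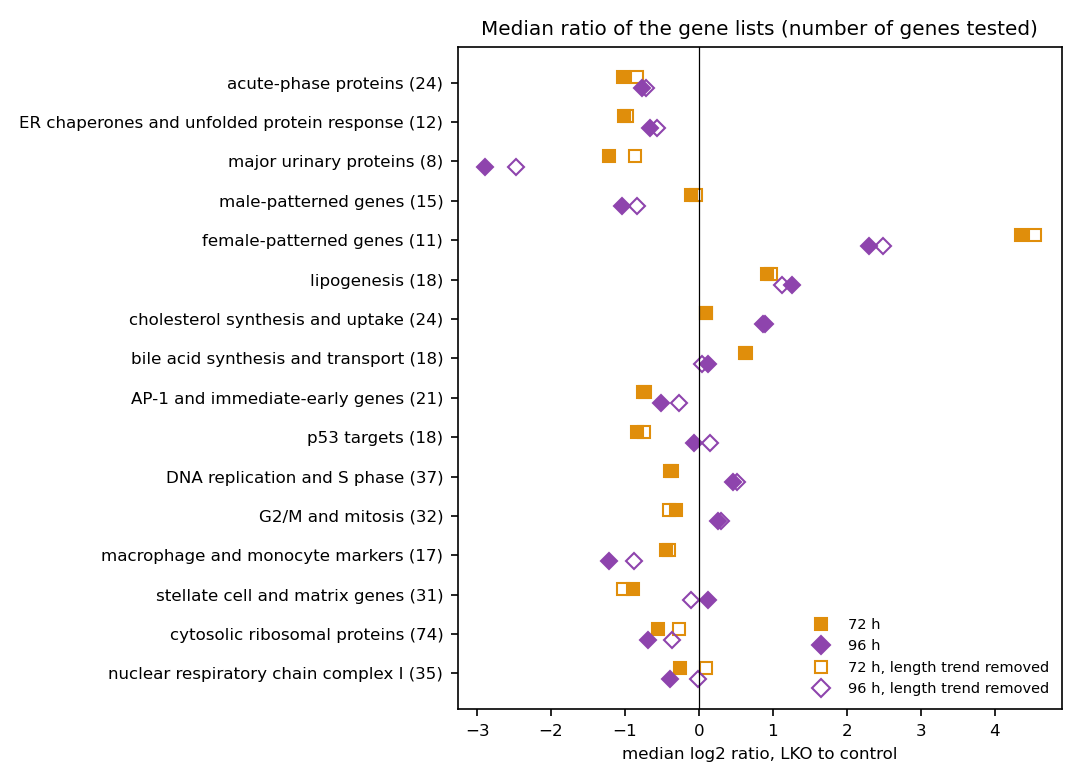
Median LKO to control log2 ratio (x axis) for 16 gene lists (y axis, with the number tested), at 72 h (orange squares) and 96 h (purple diamonds), with open symbols after removal of the length trend. Acute-phase and ER genes stay below 0 and lipogenesis and female-patterned genes above it under both, while complex I moves from -0.26 and -0.39 to 0.09 and -0.01.

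The late genotype difference was also set against the early one. edgeR's test of late minus early over the 10 pools called 19 of 13659 genes (0.139%; 1365 at unadjusted p under 0.05), 11 higher and 8 lower. Saa2 and Saa1 had the largest negative differences of the 8. Saa1 was higher in LKO in the early pools and lower in the late ones, with a late minus early difference of -6.51 on the log2 scale (SE 0.83, adjusted p = 0.023). Slc16a6, a monocarboxylate transporter, was lower in LKO at 12, 24 and 48 h (-3.57, -2.83 and -3.47). Its late ratios were smaller and on opposite sides (-0.19 and 0.60), a late minus early difference of 3.49 (SE 0.38, adjusted p = 0.021). Scara5, a ferritin receptor, was at 41.9 and 1.94 CPM, then 21.7 and 1.96, with a difference of -3.96 (SE 0.50, adjusted p = 0.023). Against the 0 h genotype difference, over 18 libraries that pool single mice and pools in 1 estimate of spread, edgeR called 0 of 13855 genes (0%; 1232 at unadjusted p under 0.05). DESeq2 called 81 there.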

How the data were processed

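Liver poly(A) RNA was sequenced. Per the labels and the study's methods, reads were trimmed (Trimmomatic), aligned to mm10 with STAR and counted per gene, and the authors deposited whole-number counts per gene, unnormalized, in 3 columns (unstranded and both strands). The unstranded column was used, and 4 rows that name no gene (unmapped, multimapping, no feature, ambiguous) were left out (of all reads in the late pools, 5.58% to 6.95% multimapping, 2.63% to 5.03% unmapped and 7.29% to 10.4% no feature). Multimapping reads are dropped, which lowers values of near-identical genes. Depth was 14939529 to 19499897 reads on genes in the late pools, which bounds counting error only.

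Counts were scaled by TMM factors over the 18 libraries of the LKO cohort and tested in edgeR 4.0.16 (R 4.3.3) by quasi-likelihood with time as a block, leaving 1 residual degree of freedom. Genes with low counts were removed with edgeR's filter. Log2 ratios used CPM with a prior count of 2. A gene was called at Benjamini-Hochberg adjusted p under 0.05 and 1.5-fold. DESeq2 1.42.0 was an alternative. Transcript lengths were the longest GENCODE transcript (98.4% of symbols matched), and a lowess trend (span 0.4) was removed as an added setting. The scripts were tested on simulated data. Named genes were the targets and genes of the study's text, the 12 highest and 12 lowest consistent genes with at least 1 CPM on average, up to 5 called per direction, up to 5 members per list, and the 5 most opposed in each direction; Hsp90b1 and the sex-linked genes and Alb were given beside them. The members, lists and tests were chosen with earlier results of these data known. The AAV libraries were not used here.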

Additional observations from a re-analysis of the deposited data

Results flagged for a closer look

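The genotype difference of 10 named genes differed between the late and the early pools by edgeR's test of the late minus early contrast. On the log2 scale the late minus early difference was 3.85 for Zbed6, 3.49 for Slc16a6, 2.94 for Dyrk2, 2.94 for Cep85l and 2.94 for Rassf8, and -8.07 for Saa2, -6.51 for Saa1, -3.96 for Scara5, -3.84 for Lcn2 and -3.62 for Prtn3. Adjusted p-values ran from 0.021 (Slc16a6) to 0.044 (Cep85l). None of the 10 was called with 12 h or with 96 h left out, where the test made 0 calls. Rassf8 was lower in LKO at 12, 24 and 48 h (-1.55, -1.004 and -1.25) and higher at 72 h and 96 h (1.46 and 1.78). Prtn3, a serine protease of neutrophil granules, was at 12.0 CPM in control and 1.76 in LKO at 72 h, and at 5.09 and 0.544 at 96 h.

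A second set of 10 genes had ratios of at least 2-fold in opposite directions at 72 h and 96 h, with 1 pool per genotype and time, so the difference was not tested. The log2 ratio at 72 h minus that at 96 h was 4.48 for Meg3, 4.32 for Gbp2b, 4.24 for AW549542, 4.10 for Rian and 4.07 for Ugt2b38. It was -4.90 for Esm1, -3.63 for Tppp3, -3.52 for Acta2, -3.51 for Fgf21 and -3.48 for Elf3. Meg3 and Rian are neighbouring long noncoding RNAs of the imprinted Dlk1-Dio3 region, and they moved alike: Meg3 was at 5.03 and 20.3 CPM at 72 h and at 27.0 and 4.68 at 96 h, and Rian at 4.84 and 21.0, then 12.4 and 2.99. The 0 h livers spanned 3.91 to 7.64 CPM for Meg3 and 0.610 to 2.27 for Rian. Fgf21, a hepatic stress hormone, was at 7.42 and 1.23 CPM, then 0.708 and 1.58.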

How the results depend on the processing

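The number of genes called between LKO and control at 72 to 96 h (585) depended on the fit. It was 999 with TMM over the 4 late pools alone, 1262 with no filter beyond 1 count, 377 with DESeq2, 80 in the fit over the 10 pools, 46 in the fit over the 18 libraries (44 higher and 2 lower, so nearly all lower calls were lost) and 0 without the time block. In the 10-pool fit, leaving out 96 h or 72 h gave 8 and 5 calls, the lone late pool of each genotype being assumed to vary like the earlier pools. Of the 585, 322 were shared with DESeq2, 79 with the 10-pool fit and 321 with the fit without the length trend (444 calls). Scaling by library size alone gave 592 calls, split 504 higher and 88 lower against 363 and 222, and moved the median of all genes from -0.004 to 0.09 at 72 h and from 0.003 to 0.22 at 96 h. The count of consistent genes (403) became 265 with at least 10 counts in every library and 1329 at a limit of 1.5-fold, and the split by library size alone was 380 higher and 93 lower. The late minus early test (19 calls) gave 170 with DESeq2, 10 without the length trend, and 0 to 54 when 1 time was left out, with 0 without 12 h or 96 h, 2 without 24 h, 7 without 72 h and 54 without 48 h. The late minus 0 h test (0 calls) gave 81 with DESeq2 and 0 to 8 when 1 library or time was left out, with 8 without LKO mouse 3 at 0 h and 1 without LKO mouse 4 or without 96 h. With a replicate block over the 0 h mice it gave 1 call. The 0 h numbers only name mice: same-numbered mice had correlated deviations of -0.35, -0.17, 0.08 and 0.20, and 0 of the 4 LKO mice correlated best with its own number. Among 253 named genes, the mean log2 ratio kept its sign in all but 4 under library size alone and in all but 8 of 252 without the length trend, and no called gene reversed. The cause of these differences was not tested.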

Other observations

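3 further genes outside the groups above differed in the same direction at both times. Nr1d1, the clock repressor REV-ERB-alpha, was at 53.2 CPM in control and 115 in LKO at 72 h, and at 71.3 and 136 at 96 h (log2 fold change 1.02, edgeR adjusted p = 0.0092), with all 4 pools below the 182 to 299 CPM of the 0 h livers. The clock list as a whole had medians of 0.47 and -0.40, with 12 of 21 members higher at 72 h and lower at 96 h. Ntrk2, the BDNF receptor, was at 1.79 and 6.26 CPM, then 0.495 and 19.4, inside the 0 h range of 0.359 to 16.8 but for the last. Osgin1, an oxidative stress-induced growth inhibitor, was at 246 and 92.5 CPM, then 234 and 85.9, below the range of the 0 h pairs (log2 fold change -1.43, SE 0.18, adjusted p = 0.0027).

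Several groups had medians nearer 0 or of opposite sign at the 2 times. PPAR-alpha targets had medians of 0.18 and -0.10, urea cycle genes 0.38 and -0.07, pericentral genes 0.87 and -0.17 (on library size alone the 96 h medians became 0.12, 0.15 and 0.05, and that of PPAR-alpha targets was also 0.12 without the length trend), and interferon-stimulated genes -0.26 and -0.27, with 13 of 26 lower at both times and 0 called by edgeR (4 at unadjusted p under 0.05) or DESeq2. Hepatocyte plasma proteins were lower at both times for 7 of 10 (4 of 10 on library size alone). Apoa1, the main protein of HDL, was at 15789 and 5748 CPM, then 9839 and 5609. None of the 10 was called by edgeR (1 at unadjusted p under 0.05), against 2 by DESeq2. Over all genes tested, 22% had an unadjusted edgeR p under 0.05.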
